A study of Mus musculus with 3 samples.

Results

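A20 is the ubiquitin-editing enzyme that restrains NF-κB signalling, and this account follows its gene Tnfaip3 with 8 genes of the same control circuit, 9 of the 55536 annotated genes in the tables. The members were chosen by gene symbol. They are Tnfaip3, the A20-binding genes Tnip1, Tnip2 and Tnip3, the linear ubiquitin ligase genes Rnf31, Rbck1 and Sharpin, and the deubiquitinase genes Cyld and Otulin.

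RNA bound to chromatin was sequenced from primary bone-marrow-derived macrophages of mouse strain C57BL/6J, with no allele or transgene named in the labels. All 3 libraries formed 1 group. The cells had been pre-treated with Lipid A, a Toll-like receptor 4 ligand from bacterial lipopolysaccharide, at 100 ng/ml for 12 h, kept without it for 12 h, and stimulated again at 100 ng/ml for 60 min. Replicates 1, 2 and 3 started from 1000, 250 and 500 ng of RNA, share 1 donor entry, and have no recorded sex or age. No untreated or singly stimulated cells were analysed here, so each value below is a level after the second dose and none is a response to Lipid A.

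When a tumour necrosis factor or Toll-like receptor is engaged, ubiquitin chains built on the receptor complex carry the signal to the kinases that release NF-κB. The linear ubiquitin chain assembly complex, made of HOIP (Rnf31), HOIL-1 (Rbck1) and Sharpin, joins ubiquitins head to tail, and OTULIN and CYLD take such chains apart. A20 edits or binds ubiquitin chains together with the TNIP (ABIN) adaptors, and in macrophages Tnfaip3 is known as an early NF-κB target and a brake on inflammatory output.

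Upstream sequences are shown for the 4 members whose windows before the start site held the NF-κB consensus, because these include the 3 genes with the highest levels. Windows of 250 bases before each RefSeq start site (GRCm38.p6, the assembly that mm10 names) covered 8 of the 9 genes in 10 windows, and Sharpin was not among them. The 10-base NF-κB consensus was found, on either strand, in 4 of the 10 windows and in 7.25% of all 32851 windows in the table. The Tnfaip3 window lies on the minus strand at chr10:19015411-19015660 and holds 110 bases of annotated exon. Its 137 bases nearest the start, chr10:19015411-19015547, lie outside annotated exons and are printed. Tnip1 lies on the minus strand at chr11:54962941-54963190, Tnip3 on the plus strand at chr6:65590148-65590397 inside an intron of Tnip3-207 and Tnip3-208, and Cyld on the plus strand at chr8:88696778-88697027. Each sequence runs 5′ to 3′ and ends on the base before the start site. Capitals mark matches to the NF-κB consensus, to a separate 9-base form GGNNTTTCC or to the AP-1 motif TGANTCA.
Tnfaip3: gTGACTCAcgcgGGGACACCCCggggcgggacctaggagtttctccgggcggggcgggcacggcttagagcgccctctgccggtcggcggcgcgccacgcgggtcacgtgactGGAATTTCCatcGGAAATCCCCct
Tnip1: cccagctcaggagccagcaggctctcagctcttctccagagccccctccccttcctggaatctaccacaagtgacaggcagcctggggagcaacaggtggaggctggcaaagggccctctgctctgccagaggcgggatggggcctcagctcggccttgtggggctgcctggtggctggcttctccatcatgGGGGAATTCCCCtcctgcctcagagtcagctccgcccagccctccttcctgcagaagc
Tnip3: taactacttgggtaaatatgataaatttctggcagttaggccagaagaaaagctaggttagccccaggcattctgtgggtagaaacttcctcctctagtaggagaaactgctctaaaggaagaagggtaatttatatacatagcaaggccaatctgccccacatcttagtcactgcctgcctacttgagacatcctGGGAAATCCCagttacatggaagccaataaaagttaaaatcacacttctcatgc
Cyld: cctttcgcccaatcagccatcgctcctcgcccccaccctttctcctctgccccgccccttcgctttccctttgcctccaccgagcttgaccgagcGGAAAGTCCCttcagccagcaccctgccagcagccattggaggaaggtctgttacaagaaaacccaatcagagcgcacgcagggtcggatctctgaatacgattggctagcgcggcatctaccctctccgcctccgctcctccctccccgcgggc
Tnfaip3 held 2 consensus matches, at 125 to 116 and at 12 to 3 bases before the start, and the second overlaps a match to the 9-base form. It also held another match to the 9-base form at 24 to 16 bases and an AP-1 match at 136 to 130 bases. Tnip1 held the palindromic run at 58 to 47 bases, which gives 3 overlapping matches. Tnip3 held 1 consensus match at 54 to 45 bases and Cyld 1 at 155 to 146 bases, both overlapping a match to the 9-base form. A second Tnfaip3 window, before the start of Tnfaip3-202, held none of the motifs, nor did the windows of Tnip2, Rnf31, Rbck1 and Otulin. The 9-base form occurred in 4.93% of all windows and the AP-1 motif in 6.75%. At least 2 matches to the 9-base form occurred in 0.198% and at least 2 consensus matches in 1.03%. The motif forms were chosen after the sequences had been seen, and a match is a run of letters, not a measured binding site.

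The A20 arm was the most abundant. Tnfaip3 (ENSMUSG00000019850.11, chromosome 10, 19000910 to 19015657, minus strand, mm10) had 617, 474 and 664 TPM, the transcript measure scaled by length and library total, in replicates 1, 2 and 3, a mean of 585 ± 99 TPM (SD, n = 3), from 26167, 19388 and 29253 expected counts. Replicate 2 was the lowest. Among the 15865 protein-coding genes with a count, Tnfaip3 ranked 38th, 66th and 37th by TPM in replicates 1, 2 and 3. In bulk RNA fewer cells and less RNA per cell cannot be told apart.

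Tnip3 (ENSMUSG00000044162.12, chromosome 6, 65525313 to 65634040, plus strand) encodes the adaptor ABIN-3. It had 541, 795 and 779 TPM in replicates 1, 2 and 3, a mean of 705 ± 142 TPM, from 17704, 20873 and 22921 expected counts. Replicate 1 was the lowest in TPM, and the range overlapped that of Tnfaip3. That low depended on the scale. In CPM, expected counts scaled to each library's sum of gene counts, Tnip3 had 1405, 1212 and 1345, highest in replicate 1. With small RNA genes left out of the TPM scale it had 1533, 1470 and 1648 TPM, lowest in replicate 2. The Tnip3 level was 0.88, 1.68 and 1.17 times that of Tnfaip3 in replicates 1, 2 and 3. In the second set of tables, made without the transcriptome alignment and laid out as kallisto writes them, Tnip3 had 676, 660 and 716 TPM. The ratios to Tnfaip3 there were 0.87, 1.22 and 0.84. Which of the 2 genes was higher thus differed between libraries and between tables.

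Tnip1 (ENSMUSG00000020400.17, chromosome 11, 54910785 to 54962917, minus strand) encodes ABIN-1, which binds A20 and ubiquitin chains. It had 199, 235 and 238 TPM in replicates 1, 2 and 3, a mean of 224 ± 21.9 TPM, ranking 233rd, 220th and 215th. Its values stayed below every Tnfaip3 value. In the kallisto-layout tables Tnip1 had 358, 427 and 479 TPM, a mean 1.88 times that of the gene tables. Tnip2 (ENSMUSG00000059866.13, chromosome 5, 34496087 to 34513991, minus strand) encodes ABIN-2, also known for stabilising the kinase TPL2. It had 33.2, 51.9 and 42.1 TPM, a mean of 42.4 ± 9.33 TPM, and stood with the ligase genes and not with the other TNIP genes.

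The 3 genes of the linear ubiquitin ligase lay close together in the gene tables. Rbck1 (ENSMUSG00000027466.15, chromosome 2, 152316334 to 152332653, minus strand), the HOIL-1 subunit, had 49.99, 59.0 and 42.2 TPM in replicates 1, 2 and 3, a mean of 50.4 ± 8.4 TPM. Rnf31 (ENSMUSG00000047098.18, chromosome 14, 55591708 to 55603693, plus strand), the catalytic subunit HOIP, had 44.2, 45.0 and 56.4 TPM, a mean of 48.6 ± 6.82 TPM. Rnf31 shares 123 exon bases, 2.15% of its exon length, with Irf9 on the same strand, and reads there cannot be assigned to 1 gene with certainty. Sharpin (ENSMUSG00000022552.16, chromosome 15, 76347040 to 76351111, minus strand), the adaptor subunit, had 29.4, 44.7 and 31.0 TPM, a mean of 35.0 ± 8.4 TPM. The ranges of Rbck1 and Rnf31 overlapped, and their order turned round in replicate 3. In the kallisto-layout tables Sharpin stood apart, with a mean of 25.3 TPM against 50.1 for Rbck1 and 59.4 for Rnf31. Its range there did not overlap that of Rbck1.

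The deubiquitinase genes had the lowest means of the 9 in the gene tables. Otulin (ENSMUSG00000046034.8, chromosome 15, 27542635 to 27630693, minus strand), whose enzyme cleaves only linear chains, had 12.2, 13.2 and 13.7 TPM, a mean of 13.0 ± 0.753 TPM from 214, 179 and 196 expected counts. Cyld (ENSMUSG00000036712.15, chromosome 8, 88697028 to 88751945, plus strand), whose enzyme cleaves linear and K63-linked chains, had 10.1, 21.6 and 10.5 TPM, a mean of 14.1 ± 6.53 TPM from 477, 999 and 525 expected counts. Cyld was high in replicate 2 alone, above every Otulin value, and below every Otulin value in the other 2 libraries. In the kallisto-layout tables Otulin had 24.7, 22.5 and 25.3 TPM, a mean 1.85 times that of the gene tables, and exceeded Cyld, with 12.6, 21.1 and 14.6 TPM, in every library. Its range there overlapped that of Sharpin, which had 28.6, 24.7 and 22.7 TPM.

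**Figure D1:**
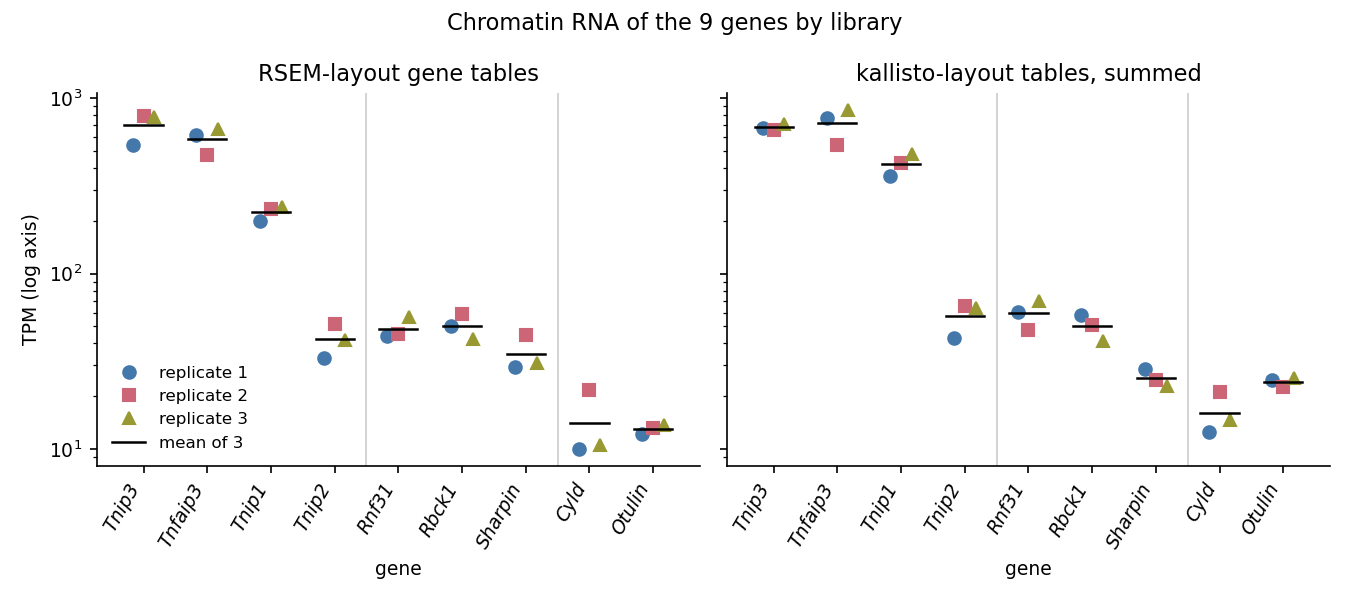
TPM of the 9 genes on a log axis in the RSEM-layout gene tables (left) and the kallisto-layout tables summed over transcripts (right). Points are the 3 libraries and bars their mean, and Tnip3, Tnfaip3 and Tnip1 lie above all other members in every library, from 199 TPM upward in the left panel.

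Replicate 2 carried stromal RNA. A list of 10 fibroblast and stroma genes, led by Col1a1, summed to 3, 47681 and 116 counts in replicates 1, 2 and 3, and in replicate 1 all but Pdgfrb were at 0. The 8 macrophage markers all had at least 10 TPM in every library and summed to 41976, 48697 and 36269 counts, with Adgre1 the highest by mean and Msr1 the highest in replicate 3. None of 6 neutrophil, 5 B cell and 4 erythroid markers was detected above 3 counts, and of 6 T cell markers only Lck passed, with 1, 4 and 0 counts. Gene counts summed to 12602702, 17222239 and 17042691, and small RNA genes held 64.4, 45.8 and 52.7% of all TPM, so that TPM of other genes is compressed unequally between libraries.

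Beside that list, Cyld in replicate 2 was 2.10 times the mean of replicates 1 and 3 in TPM and 1.69 times in CPM. It was 1.55 times in the kallisto-layout tables, and 1.99 times in expected counts, which are not scaled to library totals. The median of the TPM ratio was 1.33 over 4559 protein-coding genes with a mean of at least 10 TPM, and Cyld lay at their 90.3rd percentile. Tnfaip3 had 0.74 times the mean of the other libraries in TPM, at the 4.08th percentile, and 0.59 times in CPM. Rnf31 had 0.89 times in TPM and 0.70 times in CPM. Sharpin had 1.48 times in TPM and 1.35 times in CPM but 0.96 times in the kallisto-layout tables. The part of stromal RNA in these ratios was not tested.

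The order of levels was firm only at its large steps. Of 8 neighbouring pairs in the order of mean TPM, 4 kept their order in all 3 libraries: Tnfaip3 over Tnip1, Tnip1 over Rbck1, Tnip2 over Sharpin, and Sharpin over Cyld. The ranges of Tnip2 and Sharpin still overlapped. Tnfaip3 exceeded Tnip1 by 1.37 ± 0.32, Tnip1 exceeded Rbck1 by 2.14 ± 0.29, and Sharpin exceeded Cyld by 1.32 ± 0.26 on the log2(TPM + 1) scale (SD, n = 3). By exact sign flips, two-sided, p was 0.25 for these pairs, which 3 libraries cannot go below, and 0.5 after adjustment over the 8 pairs. In the other 4 pairs at least 1 library went against the order, so Tnip3 and Tnfaip3, Rbck1 and Rnf31, Rnf31 and Tnip2, and Cyld and Otulin could not be placed from the gene tables.

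The gap between the A20 arm and the ligase was of similar size in each library. The mean log2(TPM + 1) of Tnfaip3, Tnip1, Tnip2 and Tnip3 exceeded that of Rnf31, Rbck1 and Sharpin by 2.41, 2.39 and 2.65 in replicates 1, 2 and 3, a mean of 2.48 ± 0.15 (SD, n = 3). Within the A20 arm Tnip2 lay at the level of the ligase genes, with a mean of 42.4 TPM. The median level of the 9 genes was 48.6 TPM, against 2.65 TPM over the 15865 protein-coding genes with a count. Their median coefficient of variation was 16.9%, against 26.3% over the 4559 protein-coding genes with at least 10 TPM.

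The protein-coding genes nearest to Tnfaip3 over the 3 libraries, by Euclidean distance of log2(TPM + 1), were Tnf at 0.25, Lacc1 at 0.31 and Mndal at 0.31. Tnf, which encodes the cytokine tumour necrosis factor, had 617, 559 and 638 TPM in replicates 1, 2 and 3. The genes nearest to Cyld were Vdac1 at 0.022, Snapc4 at 0.041 and Kmt5c at 0.07, and each of them was also highest in replicate 2, at 20.8 to 21.9 TPM. With 3 libraries such nearness describes level and little else.

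Because chromatin RNA holds transcripts still being made or spliced, isoforms were described by annotated class. For 8 of the 9 genes the annotation has isoforms classed as retained intron, and for Otulin it has none. The retained-intron class held 82.8, 86.3 and 86.8% of Tnip3 TPM in replicates 1, 2 and 3. It held 59.9, 62.7 and 63.3% of Tnfaip3 TPM and 23.4, 27.9 and 29.3% of Tnip1 TPM. The mean share was 59.6% in Rbck1, 56.1% in Rnf31, 52.6% in Tnip2, 49.9% in Sharpin and 39.2% in Cyld. The median share was 45.1% over 3336 protein-coding genes with such an isoform and a mean of at least 10 TPM. In the kallisto-layout tables the mean share was 75.8% in Tnip3, 72.9% in Rnf31, 66.5% in Tnip2 and 58.6% in Sharpin. It was 52.1% in Tnfaip3, 42.4% in Rbck1, 35.7% in Cyld and 28.1% in Tnip1 there, against a median of 43.5%. Rbck1 thus lay above the median in the RSEM-layout tables and below it in the kallisto-layout tables.

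**Figure D2:**
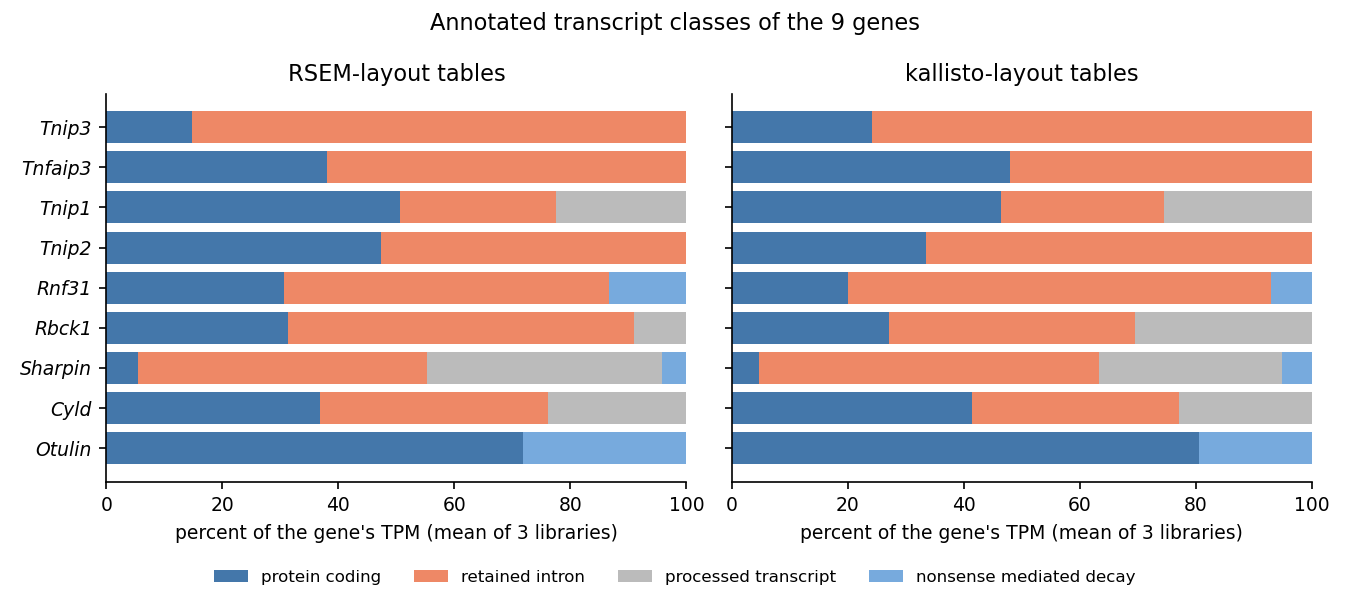
Share of each gene's TPM in 4 annotated transcript classes, as the mean of 3 libraries, in the RSEM-layout (left) and kallisto-layout (right) tables. Tnip3 has the largest retained-intron share of the 9 genes in the left panel at 85.3%, and Otulin has none.

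The ratio of the retained-intron to the protein-coding class was tested per gene with limma on log2(TPM + 0.1), over 4311 genes with Benjamini-Hochberg adjustment at 0.05. Of 8 members tested, 5 had more TPM in the retained-intron class, a call made for 24.3% of all tested genes, and 1 had more in the protein-coding class, a call made for 25.6%. The median log2 ratio of the 8 was 0.78, against −0.06 over all tested genes. For Tnip3 the ratio was 2.55 on the log2 scale with an SE of 0.21 (adjusted p = 0.0034), and for Sharpin 4.10 with an SE of 0.95 (adjusted p = 0.025). Sharpin had 0 counts in its protein-coding class in replicate 1, so its ratio depends on the pseudocount and was 2.82 with a pseudocount of 1 and 5.23 with 0.01. Rbck1 had 0.93 (SE 0.22, adjusted p = 0.027), Rnf31 0.87 (SE 0.21, adjusted p = 0.029) and Tnfaip3 0.70 (SE 0.20, adjusted p = 0.041). Tnip1 went the other way, with −0.92 (SE 0.20, adjusted p = 0.021). Tnip2 at 0.15 (adjusted p = 0.57) and Cyld at 0.08 (adjusted p = 0.78) were not called.

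Among the 8, Tnip3 alone was called under all 11 other settings, with limma adjusted p between 9.2e-04 and 0.031 and log2 ratios between 1.65 and 2.68. With no TPM minimum, Tnip3 and Sharpin alone were called. The limma adjusted p was then 0.093 for Tnfaip3, 0.069 for Rnf31, 0.063 for Rbck1 and 0.053 for Tnip1. Tnfaip3 was lost already with a minimum of 1 TPM (limma adjusted p = 0.068), and Sharpin with a pseudocount of 0.01 (limma adjusted p = 0.073). Calls of the others were also lost when 1 library was left out. Without replicate 1 or without replicate 2, Tnip3 and Sharpin were called, and without replicate 3 Tnip3 alone. Without replicate 3 the limma adjusted p was 0.058 for Sharpin, 0.10 for Rbck1, 0.15 for Rnf31, 0.18 for Tnfaip3 and 0.094 for Tnip1. In the kallisto-layout tables Tnfaip3 had a log2 ratio of 0.12 (limma adjusted p = 0.56) and Rbck1 of 0.67 (limma adjusted p = 0.068), while Rnf31 had 1.86 (limma adjusted p = 0.0023) and Tnip2, at 0.99, was called (limma adjusted p = 0.011). With processed transcripts joined to the retained-intron class and nonsense-mediated-decay isoforms to the coding class, Tnip1 had −0.04 (limma adjusted p = 0.87) and Rnf31 0.35 (limma adjusted p = 0.28). Cyld was called in opposite directions, toward the retained-intron side with these wider classes (0.76, limma adjusted p = 0.037) and toward the protein-coding class with expected counts (−0.93, limma adjusted p = 0.013). With expected counts, which are not divided by length, the short isoforms weigh less. Tnip1 then had −4.12 (limma adjusted p = 9.5e-04) and Tnip2 −1.69 (limma adjusted p = 0.0045), and Tnfaip3, Rnf31 and Rbck1 were not called. Tnip2 was thus also called in opposite directions, in the kallisto-layout tables and with expected counts.

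**Figure D3:**
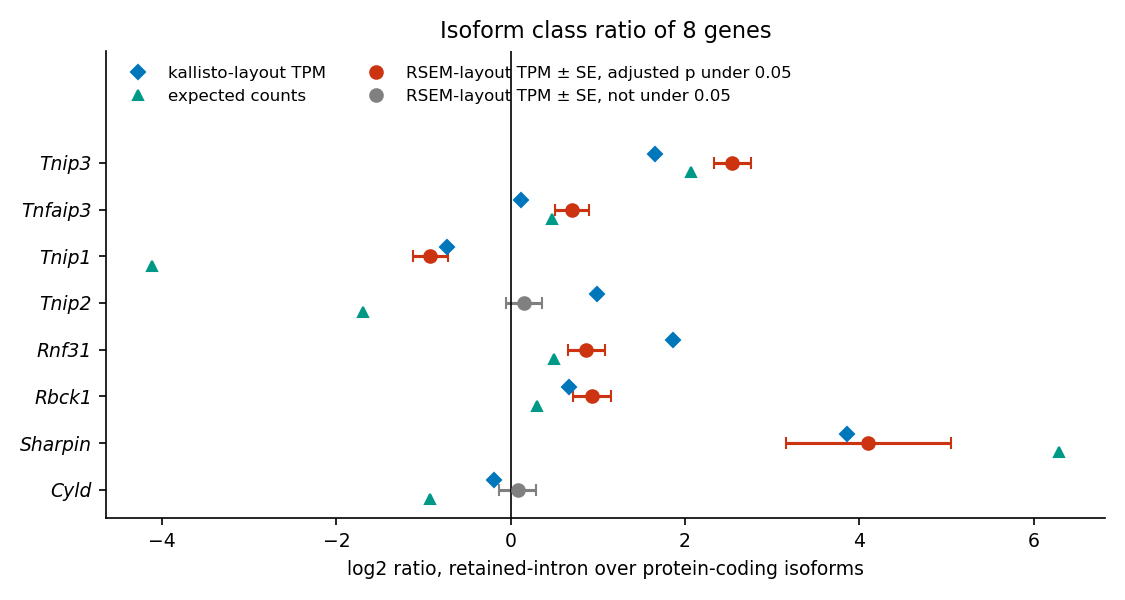
Log2 ratio of retained-intron over protein-coding isoforms for the 8 genes that have both classes. Circles are RSEM-layout TPM with the standard error from 3 libraries, diamonds kallisto-layout TPM and triangles expected counts, and only Tnip3, Sharpin, Rnf31, Rbck1 and Tnfaip3 lie right of 0 with all 3 measures.

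Most Tnip3 TPM belonged to isoforms that start inside the annotated locus. The 5 isoforms that start within 100 bases of a site 65085 bases downstream of the first start, the site whose upstream sequence is printed above, held 69.4, 71.6 and 70.2% of Tnip3 TPM in replicates 1, 2 and 3. The unspliced Tnip3-204, which starts 72261 bases downstream, held 22.9, 24.7 and 25.1%. The 2 isoforms at the first start held 7.68, 3.63 and 4.71%, and in the kallisto-layout tables a mean of 18.0%. A TPM share by isoform is an estimate from reads that several isoforms share, not a count of starts.

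Several isoforms of Tnip3 shared its RNA. Tnip3-206, a single exon of 4627 bases over the second start, had 7758, 9051 and 10603 expected counts, the most of any Tnip3 isoform. Tnip3-204, a single exon of 2624 bases, had 4458, 6161 and 6621. Tnip3-203, a 2-exon isoform of 426 bases, had 18.8, 201 and 159 TPM and was low in replicate 1 alone. By mean TPM the leading isoform was Tnip3-204 at 24.3 ± 1.17% in the RSEM-layout tables, although Tnip3-205 led in replicate 1 and Tnip3-203 in replicate 2, and it was Tnip3-205 at 33.1 ± 4.64% in the kallisto-layout tables.

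Tnfaip3 kept the same leading isoform in all libraries and both kinds of table. Tnfaip3-206, a retained-intron isoform of 764 bases and 2 exons, held 35.3, 35.0 and 36.7% of TPM in replicates 1, 2 and 3, and 34.7 ± 0.128% in the kallisto-layout tables. Its expected counts were 1944, 1092 and 1787, well under the 13331, 10347 and 14940 of Tnfaip3-205, a retained-intron isoform of 6199 bases, since TPM divides by length. The full-length coding isoforms were Tnfaip3-201 with 30.1, 37.9 and 64.7 TPM and Tnfaip3-202 with 143, 107 and 147 TPM. Tnfaip3-202 was higher than Tnfaip3-201 in each library, and the groups of values did not overlap. The start shared by Tnfaip3-201 and Tnfaip3-205, before which the printed sequence lies, held 33.8 ± 3.78% of TPM, against 20.2 ± 0.944% in the kallisto-layout tables. The short coding fragment Tnfaip3-204 held 7.81% in the RSEM-layout and 26.4% in the kallisto-layout tables, so the 2 kinds of table assign RNA near the start of the gene differently.

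**Figure D4:**
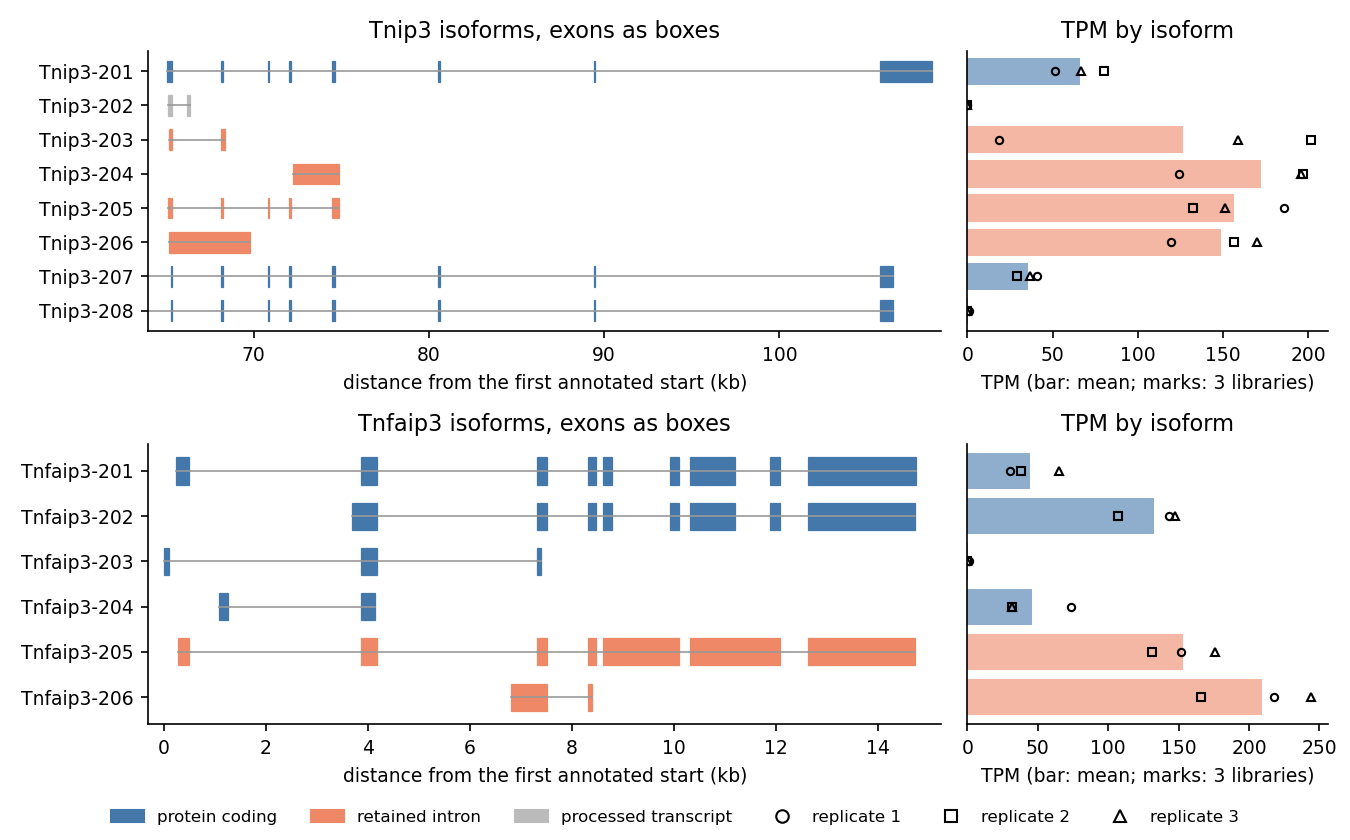
Exons of the annotated isoforms of Tnip3 (top, from 64 kb downstream of the first start on, so that the first exons of Tnip3-207 and Tnip3-208 are not drawn) and Tnfaip3 (bottom), with TPM per isoform beside them as the mean (bar) and the 3 libraries (marks). Tnfaip3-206 has the highest mean of the Tnfaip3 isoforms, 209 TPM, and Tnip3-204 that of the Tnip3 isoforms, 172 TPM.

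The other members had mixed isoforms. Otulin-201, the coding isoform, held 71.8 ± 7.52% of Otulin TPM, and an isoform annotated for nonsense-mediated decay held the rest. Tnip2-202, a coding isoform, led in all libraries with 41.1 ± 4.34%. Tnip1-205, coding and of 2642 bases, had 2297, 1770 and 2152 expected counts, while the 442-base retained-intron Tnip1-209 had 198, 157 and 197 counts but nearly the same mean TPM, 60.9 against 60.6. Sharpin-211, a 395-base processed transcript, led with 38.9 ± 11.8% of Sharpin TPM from 54, 23 and 25 counts, so that the isoform shares of Sharpin rest on few reads. Rnf31-203 and Rnf31-201 were alike, with 29.0 ± 4.24 and 29.1 ± 1.32%. Rnf31-202, a 266-base retained-intron isoform, held 26.4 ± 3.59% of Rnf31 TPM from 17, 8 and 12 counts. In the kallisto-layout tables it led with 39.0 ± 2.96%. The retained-intron share and ratio of Rnf31 thus rest in part on few reads. Rbck1-203, a 2-exon retained-intron isoform, held 35.7 ± 8.34%, and Cyld-208, a processed transcript, 23.9 ± 4.3%. The leading isoform was the same in both kinds of table for 6 of the 9 genes.

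Around the 9 genes, 37 of 38 other genes of the pathway were detected in the gene tables, where Tnip3 and Tnfaip3 exceeded each of them in all libraries. Among the 3 genes whose proteins work with A20, the adaptor gene Tax1bp1 was highest at 56.0, 94.1 and 85.5 TPM, and Rnf11, which encodes a RING-finger protein, lowest at 5.65, 13.9 and 9.39 TPM. Of 2 tested, Itch, an E3 ligase gene, had more in the retained-intron class (log2 ratio 1.36, limma adjusted p = 0.037).

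Among 9 genes of ubiquitin itself and its E1 and E2 enzymes, Ube2d3 was highest in the gene tables at 122, 176 and 182 TPM, and Ube2l3, the E2 gene of the linear ligase, lowest by mean at 12.3, 23.7 and 17.3 TPM. In the kallisto-layout tables Ube2d3 had a mean of 157 TPM and Ube2l3 of 52.2 TPM, and neither held that place in the list.

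Among 5 genes whose proteins read or bridge ubiquitin chains, Optn was highest at 88.4, 76.0 and 83.7 TPM and Tab3 lowest at 0.88, 2.41 and 5.23 TPM. All 3 tested had more in the protein-coding class: Ikbkg, which encodes NEMO, with a log2 ratio of −1.92 (limma adjusted p = 0.011), Spata2, which bridges CYLD to the linear ligase, with −1.46 (limma adjusted p = 0.025), and Tab2 with −1.39 (limma adjusted p = 0.011).

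Among 8 genes of the TNF receptor complex, the ubiquitin ligase gene Birc3 was highest at 375, 329 and 324 TPM, and the adaptor gene Tradd lowest at 2.52, 5.62 and 4.62 TPM. Of 4 tested, the receptor gene Tnfrsf1a (log2 ratio −3.06, limma adjusted p = 0.0047) and the ligase gene Birc2 (−1.50, limma adjusted p = 0.0094) had more in the protein-coding class.

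Among 13 other genes of OTU deubiquitinases and their relatives, Otud5 was highest at 112, 83.7 and 99.2 TPM and Otud3 lowest of those detected at 0.45, 1.13 and 0.89 TPM. Otud7a had 0 counts in every library of the gene tables but a mean of 80.1 TPM in the kallisto-layout tables, so its level could not be given. Of 5 tested, Otud5 had more in the retained-intron class (log2 ratio 1.03, limma adjusted p = 0.019), and Otud4 (−2.10, limma adjusted p = 0.011) and Zranb1 (−3.22, limma adjusted p = 0.0055) in the protein-coding class. Otud4 was called toward the retained-intron class in the kallisto-layout tables (1.30, limma adjusted p = 0.0068), and Otud5 toward the protein-coding class with expected counts (−1.15, limma adjusted p = 0.023).

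Of the pathway genes named above as called, Tnfrsf1a and Zranb1 were called whichever library was left out. Without replicate 3, calls were lost for Itch, Ikbkg, Spata2, Tab2, Birc2, Otud4 and Otud5, at limma adjusted p of 0.051 to 0.105. Without replicate 1, calls were lost for Itch, Spata2 and Otud5, at 0.058 to 0.083, and without replicate 2 for Itch and Spata2, at 0.052 and 0.061.

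**Figure D5:**
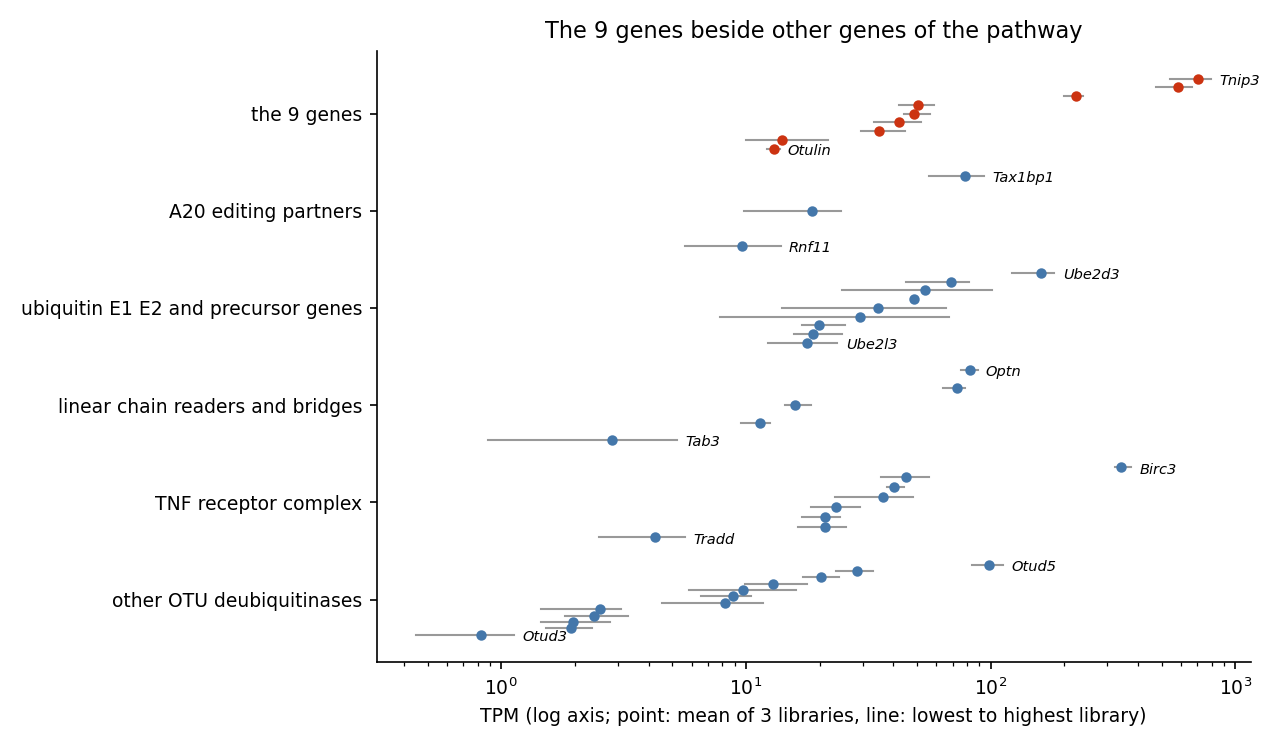
TPM on a log axis of the 9 genes (top row of points) and of the 5 lists of pathway genes, with the mean of 3 libraries as a point and the lowest to highest library as a line. The highest and lowest detected gene of each list is named, Otud7a, at 0 in the gene tables, is not drawn, and Birc3, at a mean of 343 TPM, is the highest of the genes drawn outside the 9.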

How the data were processed

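Chromatin-fraction, ribosomal-RNA-depleted RNA of 1 group of 3 libraries was analysed. The authors deposited expected counts and TPM (maximum likelihood and posterior mean) per gene and transcript in the layout RSEM writes, and transcript estimated counts and TPM in the layout kallisto writes, on mm10 and GENCODE M21 per the file notes. Isoform percent values and interval bounds of TPM, a signal on the TPM scale, were deposited by the authors in the same files. For tool versions and strand, the sources used here give nothing, so overlapping and antisense genes may share reads. Rows naming no gene held 1.94, 0.269 and 0.386% of counts and were left out. The labels do not say whether replicates came from separate animals or cultures, so each p reflects only how these libraries vary.

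Levels are means ± SD of TPM. A gene with at most 3 counts in each library was called undetected, and this floor covers counting error only. Of 9120 genes with both isoform classes, those with a summed mean of at least 5 TPM were tested with limma 3.58.1 (R 4.3.3, empirical Bayes). The method was also tried on simulated data, but only with ratios larger in size than those of Tnfaip3, Rnf31, Rbck1 and Tnip1. Neighbours in the order were compared by exact sign flips of log2(TPM + 1). Python 3.11.15 with pandas 2.3.3 and numpy 2.4.6 read the tables. Text names all 9 members, their isoforms holding at least 10% of TPM, and from each list the highest, the lowest and undetected genes and those past the isoform threshold. Also named are the 3 genes nearest to Tnfaip3 and Cyld and the highest marker of a list; other names were chosen after their values were seen. Members and lists were chosen with earlier results of these data known. Alternatives were other tables, scales, pseudocounts, minimums, isoform classes and leaving out each library. Promoter windows are from RefSeq. Some results of pathway genes are not reported here.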

Additional observations from a re-analysis of the deposited data

How the results depend on the processing

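The median level of the 9 genes, 46.1 ± 5.12 TPM as the mean of the libraries' medians, was 57.5 in the kallisto-layout tables, 151 on a protein-coding scale and 104 without small RNA genes. The difference between the A20 arm and the ligase, 2.48 on the log2 scale, was 2.94 in the kallisto-layout tables, 2.67 from CPM and 2.98 with medians. Genes called toward the retained-intron class numbered 1049, against 1810 in the kallisto-layout tables and 426 to 838 with 1 library left out, fewest without replicate 3. Genes called toward the protein-coding class numbered 1104, against 2372 with expected counts and 541 to 851 with 1 library left out. The split of calls toward the 2 classes was 24.3 and 25.6%, against 37.2 and 27.7% in the kallisto-layout tables and 16.4 and 55.0% with expected counts, where the median log2 ratio of all genes moved to 0.22 and −1.20. Ratios that changed sign with expected counts were Tnip2 (−1.69), Cyld (−0.93), Itch (−0.22) and Otud5 (−1.15), and in the kallisto-layout tables Cyld (−0.19) and Otud4 (1.30). The Cyld ratio ranged from −0.042 to 0.19 with 1 library left out. The cause of these shifts was not tested beyond the division by length that expected counts lack. The direction of every other ratio named in the text was kept under every alternative run. No paired analysis was possible because all libraries belong to 1 group. Lone isoforms of under 100 counts, as in Sharpin, Cyld and Rnf31, are limited by depth.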
